A study of Mus musculus with 58 samples.

Results

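Tendon genes and small matrix proteoglycans were followed across extensor digitorum longus (EDL), soleus (SOL) and heart of mice with cancer cachexia. The set holds 10 of the 18820 genes measured, namely Tnmd, Kera, Chad, Thbs4, Comp, Fmod, Scx, Mkx, Lum and Dcn, and each has 1 probe set with a single gene symbol. The set was chosen for the large fall of Tnmd, Kera and Chad, without a record of which mice showed it. T against C is therefore given below as a description with no test, and the tests among trained mice and against body mass are not independent evidence for these 3 genes, because all values were known when the set was chosen. All mice were individually housed male CD2F1 mice, killed at day 19, whose age the labels do not give. Tumour-bearing mice (T) had received C26 colon adenocarcinoma cells under the skin of the flank and control mice (C) a sham injection of Hank's balanced salt solution. The T + WBV and C + WBV mice were also trained from day 1 by whole-body vibration (WBV), in daily bouts of 15 min with a frequency of 45 Hz and an acceleration of 1.0 g. Gene expression was measured on 58 arrays of 23 mice. EDL and SOL each have 6 T, 5 T + WBV, 6 C + WBV and 6 C arrays, and heart has 3 in each group. All values are log2 levels after robust multi-array averaging (RMA), so a log2 difference of 1 is a doubling of the signal, and levels of different genes cannot be set against each other because each probe set binds with its own strength.

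Tendons join muscle to bone and consist mostly of parallel type I collagen fibrils made by tendon fibroblasts. Scleraxis (Scx) and Mohawk (Mkx) are transcription factors of these cells, and tenomodulin (Tnmd) is a membrane protein widely used as a marker of mature tendon fibroblasts. Keratocan (Kera), lumican (Lum), fibromodulin (Fmod), decorin (Dcn) and chondroadherin (Chad) are leucine-rich repeat proteins of the matrix, most of which bind collagen and shape its fibrils, while Comp and Thbs4 are thrombospondins of tendon and cartilage matrix. Dcn, Lum and Kera lie side by side on chromosome 10 in this order, followed by Epyc, another member of the family.

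The regions before the start sites of Tnmd, Kera and Chad are shown because these 3 genes differed most between the groups. Each line holds the 250 bases before the start in the RefSeq annotation of GRCm38.p6, at chrX:133850758-133851007, chr10:97606955-97607204 and chr11:94564797-94565046, all on the plus strand. Capitals mark the E-box CANNTG, the motif class that Scx and other basic helix-loop-helix factors bind, which as a pattern reads the same on both strands.
Tnmd: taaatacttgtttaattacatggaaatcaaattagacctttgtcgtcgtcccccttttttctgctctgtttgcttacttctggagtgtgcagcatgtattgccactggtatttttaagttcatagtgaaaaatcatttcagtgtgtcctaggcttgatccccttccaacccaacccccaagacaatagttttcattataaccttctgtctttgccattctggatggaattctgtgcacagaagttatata
Kera: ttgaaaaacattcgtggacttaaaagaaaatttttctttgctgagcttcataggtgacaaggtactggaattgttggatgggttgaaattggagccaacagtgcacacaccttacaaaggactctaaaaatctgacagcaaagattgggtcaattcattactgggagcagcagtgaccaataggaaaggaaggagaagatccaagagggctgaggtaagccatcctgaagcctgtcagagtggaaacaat
Chad: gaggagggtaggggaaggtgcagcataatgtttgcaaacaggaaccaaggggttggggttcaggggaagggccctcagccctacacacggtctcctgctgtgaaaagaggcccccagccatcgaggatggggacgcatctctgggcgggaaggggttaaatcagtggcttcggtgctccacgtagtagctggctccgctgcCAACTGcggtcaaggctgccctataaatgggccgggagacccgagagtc
The Chad region held 1 E-box, starting 49 bases before the start, and the Tnmd and Kera regions held none. Of all 32851 regions of the same length in the table, 66.2% held at least 1. A match is a description of the letters and not a measured binding site. Of the 10 genes, 5 had such a region in the table.

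The arrays carried the identity that their labels give. Myh4, the fast myosin IIb, ran from 12.40 to 13.02 in EDL and reached no more than 10.84 in SOL. Myh7, the slow myosin, ran from 12.00 to 12.48 in SOL and stayed at or below 9.18 in EDL, and the atrial peptide gene Nppa was at least 12.26 in heart and at most 4.60 in the skeletal muscles. An array of EDL, T + WBV replicate 3, stood apart in several of the tendon genes, and its mouse had the lowest body mass of all (75.9% of the start). In SOL the same mouse was also lowest of its group for Tnmd, Kera and Chad. Its Thbs4, however, was 10.36 in SOL against 6.29 in EDL. No SOL array of T + WBV had Fmod under 9.00, against 3.80 on this EDL array. An array of SOL, C + WBV replicate 2, had the lowest value of its group for Tnmd, Kera, Chad, Thbs4, Comp, Fmod, Scx and Mkx, while the EDL of the same mouse did not. In EDL, C + WBV replicate 5 had the lowest value of its group for Tnmd, Kera, Chad, Thbs4, Comp, Fmod, Mkx and Dcn. Without that array Tnmd, Kera and Chad differed between T + WBV and C + WBV by −2.91, −3.29 and −2.72 in EDL, and no call there changed. Without T + WBV replicate 3 of EDL the same differences were smaller, at −2.20, −2.60 and −2.03, and all were still called. Nothing in the labels says how much tendon stayed on each muscle piece, and in bulk tissue fewer cells of a type and less RNA per cell cannot be told apart.

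**Figure D1:**
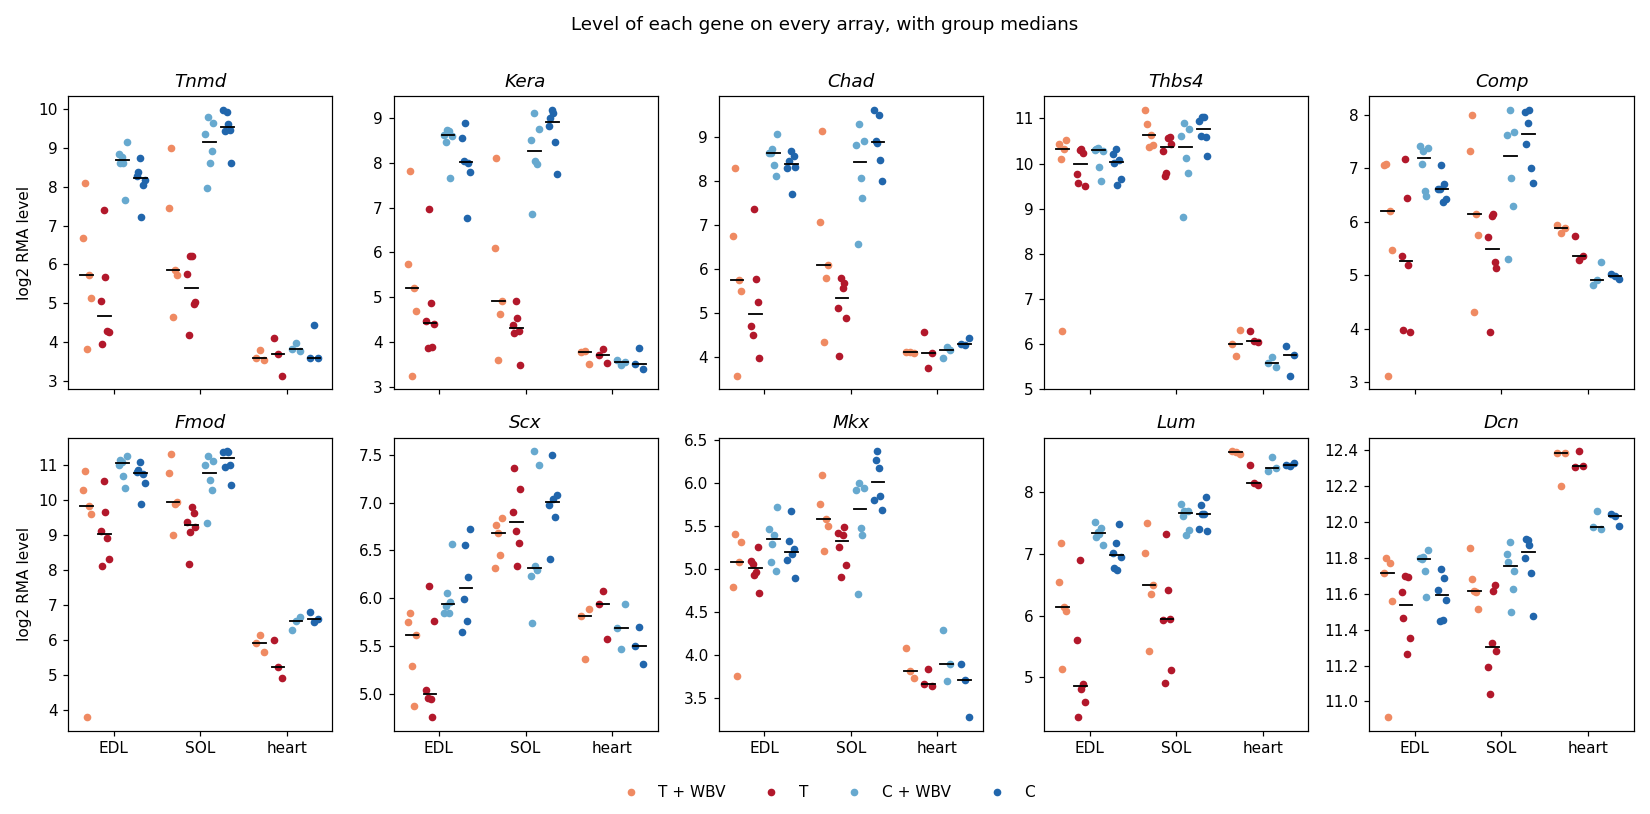
The log2 RMA level of each gene on every array, grouped by tissue and, within a tissue, in the order T + WBV, T, C + WBV and C, with a line at each group median. Tnmd, Kera and Chad lay between 3.24 and 9.15 in tumour-bearing EDL and SOL and between 6.57 and 9.99 in the controls, and between 3.11 and 4.57 in heart.

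Tnmd was lower in the skeletal muscles of trained tumour-bearing mice than in trained controls. In EDL the 5 T + WBV arrays gave 6.69, 8.09, 3.81, 5.72 and 5.14, against a lowest, median and highest C + WBV value of 7.66, 8.69 and 9.16. Only T + WBV replicate 2, the mouse with the highest body mass of the tumour-bearing mice (100.9% of the start), lay within the range of its controls. The log2 difference was −2.72 (SE 0.56, adjusted p = 0.00138, limma). In SOL the T + WBV values were 7.46, 9.00, 4.65, 5.85 and 5.72, against 7.96, 9.15 and 9.79 in C + WBV, and the same mouse was again the only one within the control range. The difference there was −2.51 (SE 0.53, adjusted p = 0.00376), and it no longer passed 0.01 without T + WBV replicate 3 (−2.04, adjusted p = 0.0205), replicate 4 (−2.34, adjusted p = 0.0152) or replicate 5 (−2.31, adjusted p = 0.0154). The untrained mice had a lowest, median and highest value of 3.95, 4.67 and 7.397 in T and 7.22, 8.22 and 8.75 in C for EDL, and of 4.17, 5.38 and 6.21 in T and 8.62, 9.54 and 9.99 in C for SOL.

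Kera showed the largest differences of the set. Some tumour-bearing muscles had Kera, Tnmd or Chad under the median signal of all probe sets on any array (4.515 to 4.603). The lowest were 3.24, 3.81 and 3.56 in turn, in EDL of T + WBV. The sizes of these differences and their order are therefore uncertain. The EDL values of Kera were 5.75, 7.81, 3.24, 5.21 and 4.68 in T + WBV, against 7.65, 8.62 and 8.73 as lowest, median and highest in C + WBV. In SOL they were 6.10, 8.10, 3.60, 4.63 and 4.91 in T + WBV, against 6.85, 8.28 and 9.12 in C + WBV. In both muscles T + WBV replicate 2 alone reached the control range. Kera differed by −3.13 on the log2 scale in EDL (SE 0.56, adjusted p = 0.000449). The SOL value was −2.74 (SE 0.52, adjusted p = 0.00176), and both calls held whichever single array was left out. In a fit of only the trained groups, Kera and Tnmd no longer passed in SOL (adjusted p = 0.0241 for Kera and 0.0300 for Tnmd). Among the untrained mice the group medians were 4.43 in T and 8.01 in C for EDL, and 4.32 in T and 8.91 in C for SOL.

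Chad followed the same order in EDL but not beyond the threshold in SOL. In EDL it was at 6.75, 8.29, 3.56, 5.75 and 5.50 in T + WBV, against 8.13, 8.65 and 9.08 as lowest, median and highest in C + WBV, a difference of −2.63 (SE 0.55, adjusted p = 0.00154). In SOL the values were 7.07, 9.15, 4.35, 5.79 and 6.09 in T + WBV, against 6.57, 8.45 and 9.30 in C + WBV, so replicates 1 and 2 overlapped with the controls. The SOL difference was −1.72 (SE 0.57, adjusted p = 0.0592). It passed without T + WBV replicate 2 (−2.39, adjusted p = 0.00140), but not without C + WBV replicate 2 (−2.05, adjusted p = 0.0260) or T + WBV replicate 3 (−1.19, adjusted p = 0.239). Among the untrained mice the medians were 4.98 in T and 8.39 in C for EDL, and 5.34 in T and 8.89 in C for SOL.

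Lum, Fmod and Dcn are the other small leucine-rich proteoglycans of the set. In EDL Lum was at 6.55, 7.18, 5.13, 6.14 and 6.07 in T + WBV, against 7.14, 7.34 and 7.51 in C + WBV, and in SOL at 7.01, 7.50, 5.42, 6.35 and 6.49 in T + WBV, against 7.30, 7.66 and 7.80. Again replicate 2 was the single T + WBV array inside the control range. The differences of −1.13 (SE 0.33, adjusted p = 0.0153) and −1.03 (SE 0.32, adjusted p = 0.0428) missed the threshold, and each passed without replicate 2 (−1.37 with adjusted p = 0.00235 in EDL, −1.27 with adjusted p = 0.00836 in SOL). Fmod gave 10.30, 10.85, 3.80, 9.85 and 9.61 in EDL of T + WBV, against 10.35, 11.05 and 11.25 in C + WBV. Its difference of −2.04 (SE 0.76, adjusted p = 0.0555) rested in large part on replicate 3, and was −0.77 without it (adjusted p = 0.119). In SOL Fmod differed by −0.41 (SE 0.35, adjusted p = 0.535), a value that was −0.12 without T + WBV replicate 3, −0.66 without C + WBV replicate 2 and −0.70 without T + WBV replicate 2. Dcn gave −0.21 (SE 0.12) in EDL, and −0.048 without T + WBV replicate 3. Its SOL value was −0.07 (SE 0.10), and neither passed.

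The thrombospondins and the transcription factors did not pass in the skeletal muscles. Comp gave 7.05, 7.07, 3.11, 6.19 and 5.48 in EDL of T + WBV, against 6.48, 7.20 and 7.41 in C + WBV, a difference of −1.26 (SE 0.55, adjusted p = 0.110) that was −0.59 without replicate 3. In SOL Comp differed by −0.67 (SE 0.53, adjusted p = 0.506), and by −0.17 without T + WBV replicate 3, −1.09 without T + WBV replicate 2 and −0.999 without C + WBV replicate 2. Thbs4 lay between 10.10 and 10.52 in all T + WBV arrays of EDL but replicate 3, which was at 6.29, against 9.62 to 10.33 in C + WBV. Its difference of −0.60 turned to 0.21 without that array, and in SOL it was 0.53 (SE 0.27, adjusted p = 0.254), or 0.26 without C + WBV replicate 2. Scx differed by −0.56 (SE 0.23, adjusted p = 0.0926) and Mkx by −0.45 (SE 0.21, adjusted p = 0.127) in EDL, and Mkx was at −0.18 without T + WBV replicate 3. In SOL their values were 0.02 (SE 0.25) and 0.05 (SE 0.20), and the sign of both changed when single arrays were left out (−0.15 for Scx and −0.12 for Mkx without C + WBV replicate 2).

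Of the 10 genes, 3 were called lower in EDL of T + WBV against C + WBV and 0 higher, where 6.60% of all genes were lower and 5.27% higher. In SOL 2 were lower and 0 higher, beside 1.66% and 1.94% of all genes. The median log2 difference over the set was −1.19 in EDL and −0.54 in SOL, beside −0.0262 and −0.0166 over all genes. The genes called were Tnmd, Kera and Chad in EDL and Tnmd and Kera in SOL, for whose fall the set was chosen. None of the other 7 was called in either muscle. These counts and medians restate that choice in part, so no excess of the set is read from them. Markers of fast muscle fibres were also lower in SOL by their median (−1.16), although 0 of 5 passed. Pvalb, the calcium buffer of fast fibres, had the lowest value of the 5 (−2.19, SE 0.56, adjusted p = 0.0132) and is named after its value was seen. The summed linear level of these 5 genes in SOL ran from 3368 to 6821 in T + WBV, against 3453 to 7891 in C + WBV, and their mean log2 level from 7.23 to 9.81 in T + WBV, against 8.39 to 10.19 in C + WBV. Over the same 5 genes in SOL, the median log2 difference was 0.99 in C + WBV against C. It was 0.69 in T + WBV against T and −0.48 in T against C. The part of these fast markers in the SOL result was not tested. In the untrained mice 1 of 10 was lower without overlap between T and C in EDL (8.39% of all genes) and 7 of 10 in SOL (6.68%), and nothing is read from these counts. The log2 differences there, listed for Tnmd, Kera and Chad in turn, were −3.04, −3.26 and −3.08 in EDL and −4.12, −4.43 and −3.73 in SOL. Those of the other 7 genes ran from −1.83 for Lum to −0.02 for Thbs4 in EDL, and from −2.15 for Comp to −0.14 for Scx in SOL.

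**Figure D2:**
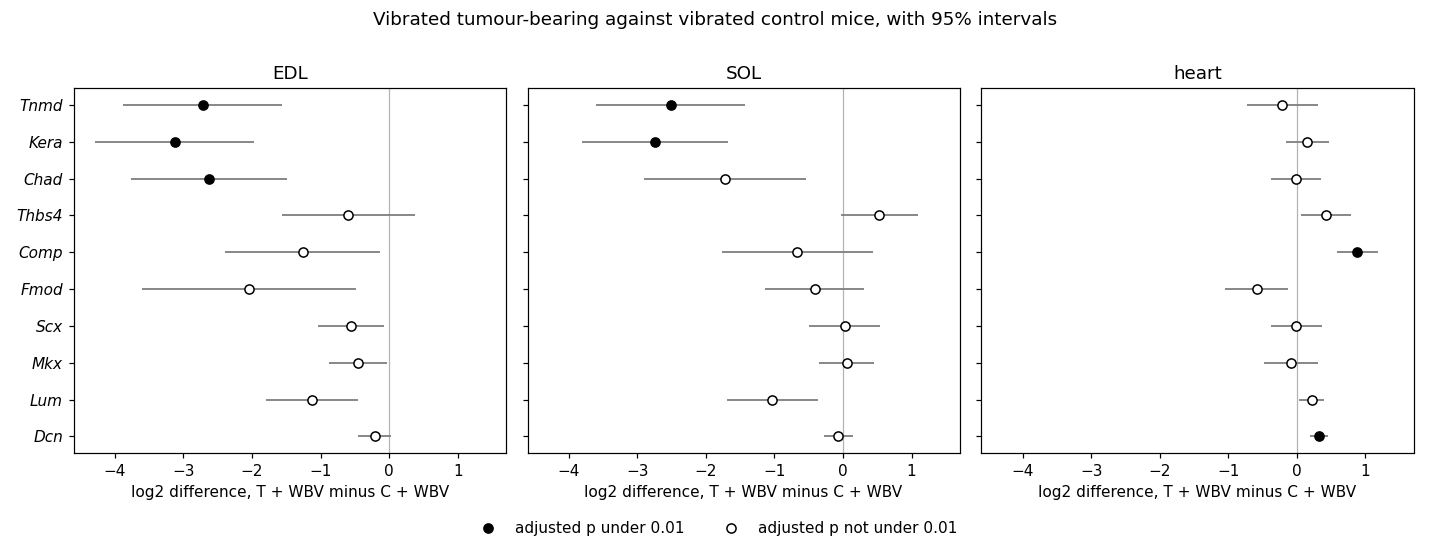
The log2 difference of T + WBV minus C + WBV for each gene in EDL, SOL and heart, with its 95% interval from limma. Filled points have an adjusted p under 0.01, and these are Tnmd, Kera and Chad in EDL, Tnmd and Kera in SOL, and, with a positive difference, Comp and Dcn in heart.

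Heart gave another picture. Comp was at 5.94, 5.79 and 5.88 in T + WBV, against 4.82, 4.91 and 5.24 in C + WBV, with no overlap and a difference of 0.88 (SE 0.14, adjusted p = 0.00304). Dcn was at 12.38, 12.20 and 12.39 in T + WBV, against 11.97, 12.06 and 11.96 in C + WBV, a small difference of 0.32 (SE 0.06, adjusted p = 0.00842). Both were thus higher in the trained tumour-bearing hearts. The call of Comp was lost without T + WBV replicate 1 or 3 or C + WBV replicate 1 or 2 (adjusted p up to 0.0237), and that of Dcn without any single array but T + WBV replicate 2 (adjusted p up to 0.0605). Fmod was lower without overlap, with 5.94, 6.17 and 5.67 in T + WBV against 6.304, 6.55 and 6.68 in C + WBV, but its difference of −0.59 (SE 0.21, adjusted p = 0.126) did not pass. Thbs4 (0.42, adjusted p = 0.161) and Lum (0.22, adjusted p = 0.167) were higher without overlap and did not pass. So 4 of 10 were higher and 1 lower without overlap. The share over all genes was not counted here, and nothing is read from these separations with 3 arrays a group. In all, 2 of 10 were called higher and 0 lower in heart, beside 1.01% and 0.478% of all genes. Tnmd and Kera stayed at or below 4.43 in every heart, under the median signal of all probe sets on any array (4.515 to 4.603), and the deposited values carry no detection call, so the sizes of their differences in heart, or between heart and muscle, are not read. Chad differed by −0.01 in heart. In the untrained hearts 1 gene, Fmod, was lower without overlap (16.3% of all genes) with 6.00, 5.25 and 4.93 in T against 6.81, 6.53 and 6.60 in C, and 3 genes, Thbs4, Comp and Dcn, were higher without overlap (15.7% of all genes).

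Training was compared within tumour-bearing and within control mice. No gene of the set was called in T + WBV against T in EDL, SOL or heart, where 0% of all genes were called in each tissue. In SOL 5 of the 10 had an unadjusted p under 0.05 in that comparison, in EDL 1 and in heart 3, beside 939, 902 and 1407 of all 18820 genes. The differences of Tnmd, Kera and Chad in SOL were 1.15 (95% interval 0.06 to 2.24), 1.17 (0.11 to 2.24) and 1.32 (0.13 to 2.50), each with an adjusted p of 0.928. There T + WBV replicate 2, the heaviest tumour-bearing mouse, had the highest value of its group for each gene (9.00, 8.10 and 9.15). The next values were 7.46, 6.10 and 7.07. The group medians lay closer together than the means, at 5.85, 4.91 and 6.09 in T + WBV against 5.38, 4.32 and 5.34 in T. The differences of these genes in EDL were 0.79, 0.59 and 0.71, with intervals that include 0. The set was chosen for the fall of Tnmd, Kera and Chad, and T or C mice may have entered that choice. Low T values picked in this way would raise T + WBV minus T, so these differences are not read as an effect of training. Likewise 0 genes of the set, and 0% of all genes, were called in C + WBV against C in any tissue, with 2 of 10 in SOL and 0 in EDL and heart at an unadjusted p under 0.05, beside 598, 627 and 625 of all genes. Tnmd differed there by 0.47 (−0.64 to 1.57) in EDL and −0.46 (−1.50 to 0.58) in SOL.

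Within the tumour-bearing groups the levels of Tnmd, Kera and Chad followed body mass at day 19, expressed as a percentage of the mass at the start (the mean of days 0 and 1). Body mass ran from 75.9% to 100.9% in T + WBV and from 77.5% to 91% in T, against 107% to 111.4% in C + WBV and 107.9% to 114.5% in C. In EDL Chad was lowest in the lightest mouse (3.56 at 75.9%) and highest in the heaviest (8.29 at 100.9%), with 7.38 at 91% and 6.75 at 87.8%. A limma fit with group and body mass over the 11 tumour-bearing mice gave, per 10 percentage points, slopes on the log2 scale of 1.91 for Chad (SE 0.19, adjusted p = 0.000742), 1.81 for Kera (SE 0.20, adjusted p = 0.000742), 1.79 for Tnmd (SE 0.24, adjusted p = 0.00223) and 1.00 for Lum (SE 0.18, adjusted p = 0.00896) in EDL. In SOL the slopes were 1.62 for Chad (SE 0.20, adjusted p = 0.00191), 1.54 for Kera (SE 0.18, adjusted p = 0.00146) and 1.53 for Tnmd (SE 0.25, adjusted p = 0.00823). So 4 of 10 genes were called with a positive slope in EDL and 3 in SOL, beside 0.685% and 0.207% of all genes. Of these, only Lum in EDL lies outside the 3 genes for whose fall the set was chosen. Regardless of the test, 10 of 10 slopes lay above 0 in EDL and 9 of 10 in SOL, beside 50.5% and 46.1% of all genes. The median slope over the set was 1.27 in EDL and 0.83 in SOL, beside 0.00181 and −0.0114 over all genes.

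These slopes rest on few mice, and the lowest values of Tnmd, Kera and Chad lay under the median signal of all probe sets, so their sizes are uncertain. When the 2 heaviest tumour-bearing mice were left out (100.9% and 91%, also the farthest from the median), no gene of the set passed, although the slopes of Chad (2.64 in EDL, 2.31 in SOL), Kera (1.64 and 1.91) and Tnmd (2.03 and 1.99) were of like size. Without the heaviest mouse alone, T + WBV replicate 2, only Chad in EDL still passed (2.40, adjusted p = 0.00517). In SOL none passed without that mouse or without T + WBV replicate 3. Tnmd also missed the threshold without T replicate 3 (1.61 in EDL with adjusted p = 0.0191, 1.73 in SOL with adjusted p = 0.0219) and, in SOL, without T replicate 6 or T + WBV replicate 1 or 5. Lum in EDL missed it without any of T replicates 3, 4 and 6 or T + WBV replicates 1, 2, 3 and 5 (adjusted p up to 0.0528). The paper defines carcass mass as body mass excluding the tumour, and it was fitted in grams and not as a percentage of the start. With carcass mass in place of body mass no gene of the set passed, the smallest adjusted p being 0.0105 for Chad in EDL. The slopes per gram for Tnmd, Kera and Chad in EDL were 0.61, 0.60 and 0.68. The part of tumour mass in the body mass slopes was not tested. Among the T mice alone none passed either. There the slopes of Tnmd, Kera and Chad were 2.17, 1.99 and 2.24 in EDL. In SOL they were 0.83, 0.71 and 0.84, smaller than in the fit of both tumour-bearing groups. Comp (1.54 in EDL, 1.26 in SOL), Fmod in EDL (2.03) and Lum in SOL (0.97) had positive slopes that did not pass, whereas Scx (−0.06), Dcn (0.06) and Thbs4 (0.09) were near 0 in SOL.

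**Figure D3:**
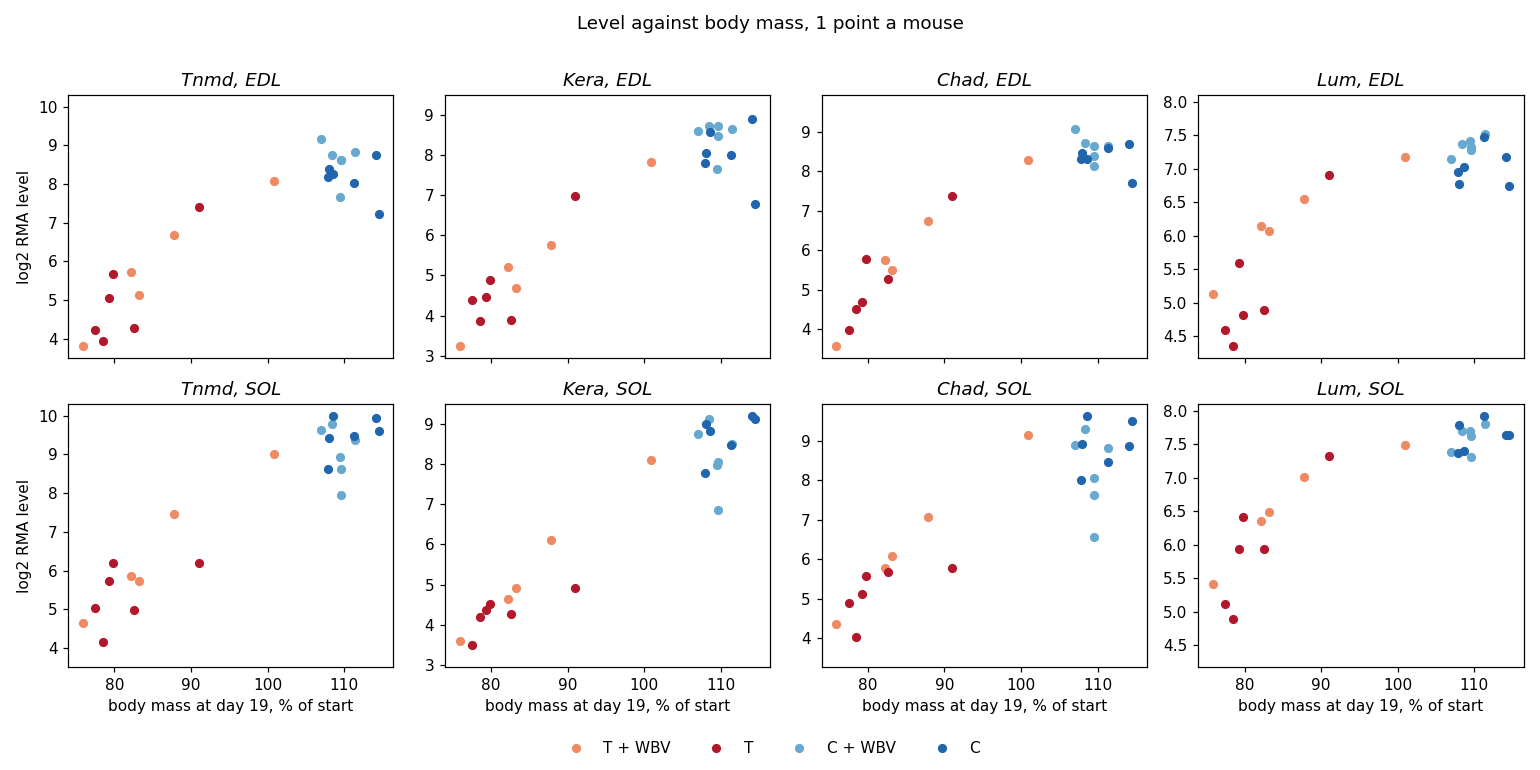
The log2 RMA level of Tnmd, Kera, Chad and Lum in EDL (upper row) and SOL (lower row) against body mass at day 19 as a percentage of the start, with 1 point for each mouse. Tumour-bearing mice spread from 75.9% to 100.9% and their levels are higher in the heavier mice, and the controls lie together above 107%.

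The tissues were compared among untrained controls. Within the same 6 mice, Tnmd was higher in SOL than in EDL by 1.37 (SE 0.23, adjusted p = 8.39e-05), Scx by 0.82, Mkx by 0.79 and Lum by 0.60, so 4 of 10 were called, beside 13.2% of all genes in either direction. Tnmd exceeded its EDL value in all 6 mice, by 0.45 to 2.39. None of the 4 was called between the same tissues of the C + WBV mice, whose means ran the same way, with Tnmd at 9.05 in SOL and 8.61 in EDL, Scx at 6.59 and 6.03, Mkx at 5.58 and 5.32, and Lum at 7.58 and 7.34. Most of the set was lower in heart than in the skeletal muscles. In the 3 C mice with all tissues, 7 of 10 were lower and 1, Lum, was higher in heart than in EDL (28.6% of all genes called), and 8 were lower in heart than in SOL (19.0% of all genes). Thbs4 was lower in heart than in EDL by a log2 difference of −4.46 (SE 0.22), whereas Lum differed by 1.31 (SE 0.17, adjusted p = 3.24e-05). The tumour effect among trained mice was not called different between SOL and EDL for any of the 10, where 0.0638% of all genes were called, and the smallest adjusted p was 0.276 for Mkx. At an unadjusted p under 0.05 there were 4 of the 10, beside 1953 of all 18820 genes. For Kera the interval of that difference ran from −0.47 to 1.25 and for Tnmd from −0.51 to 0.92.

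The genes also varied together among mice of 1 group. After each value was set relative to its group mean, all 45 pairs of the set had a positive Pearson r over the 23 EDL arrays, with a median of 0.709, and 43 of 45 had one over the 23 SOL arrays, with a median of 0.620. The closest pair in EDL was Tnmd and Kera (0.964), and in SOL Chad and Comp (0.942). Scx was the least alike, with r of −0.295 with Lum and −0.222 with Dcn in SOL. These are descriptions, since the pairs of genes share the same arrays and the same few mice at the extremes. Tumour-bearing mice weigh most in these r values, because the SD of Tnmd in EDL was 1.29 in T and 1.61 in T + WBV. It was 0.51 in C and 0.50 in C + WBV. The r values were not computed for each group alone, nor the share of positive pairs over all genes. Outside the set, the genes most like Tnmd, Kera and Chad by the mean r over both muscles were Col1a2 (0.914), Cpxm2 (0.905), Serpinf1 (0.904), Rcn3 (0.900) and Col1a1 (0.897). Col1a1 and Col1a2 encode the chains of type I collagen, and Serpinf1 a secreted serpin.

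**Figure D4:**
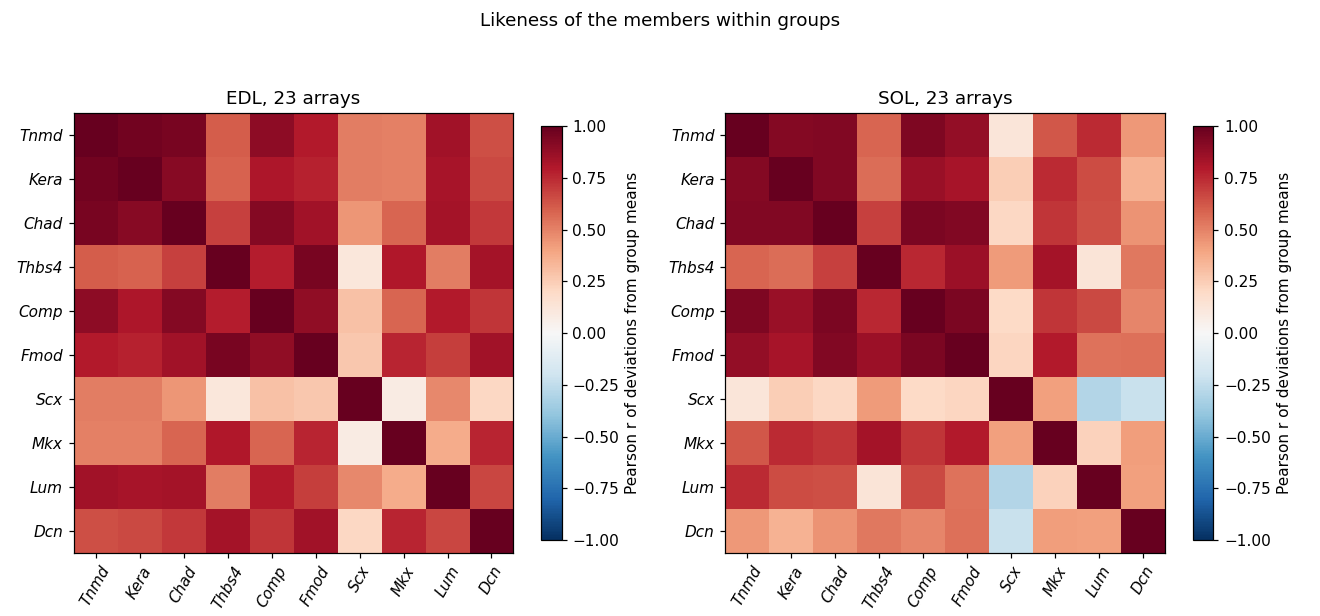
Pearson r between the members, computed from deviations from group means over the 23 EDL arrays (left) and the 23 SOL arrays (right), where red is positive and blue negative. The block of Tnmd, Kera, Chad and Comp is dark red in both muscles, and the row of Scx is pale.

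Other genes of tendon and its surroundings were read from lists set up for comparison. Of 19 measured tendon matrix genes outside the set, 10 were lower and 1 higher in EDL of T + WBV against C + WBV, and 6 were lower and 2 higher in SOL, with a median log2 difference of −0.71 and −0.58. Over all genes, 6.60% were lower and 5.27% higher in EDL, and 1.66% and 1.94% in SOL. The gene that was higher in EDL was Eln, elastin (0.46, SE 0.11). Col1a1 was at a mean of 7.48 in T + WBV and 10.34 in C + WBV in EDL, a difference of −2.87 (SE 0.49), and Col1a2 differed by −2.52 (SE 0.45) there. In SOL Col1a1 differed by −2.44 (SE 0.50) and Postn, a matricellular protein, by −2.09 (SE 0.46). In the other direction, Lox, which crosslinks collagen, differed by 1.95 (SE 0.31) and Prg4, the lubricin of joint surfaces and tendon sheaths, by 1.87 (SE 0.23) in SOL. The summed linear level of this list ran from 1409 to 4079 in EDL of T + WBV, against 3828 to 7533 in C + WBV, and from 4200 to 7943 in SOL of T + WBV, against 4034 to 9396 in C + WBV, so that the ranges overlapped little in EDL and for most of their length in SOL. The part of this list in the result was not tested. On T + WBV replicate 3 of EDL its mean log2 level was 5.61, while the other 4 T + WBV arrays ran from 6.51 to 7.06.

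Of 13 other small leucine-rich proteoglycans and relatives, 2 were lower in EDL, Epyc by −0.61 (SE 0.14) and Ecm2 by −0.59 (SE 0.14), and 0 passed in SOL. Of 10 fibroblast and fibro-adipogenic progenitor markers, 4 were lower in EDL, namely Col15a1 (−1.25, SE 0.18), Thy1 (−1.04, SE 0.24), Dpp4 (−1.01, SE 0.24) and Smoc2 (−0.85, SE 0.14), and 1, Col15a1, in SOL (−1.27, SE 0.23). The summed level of that list was 1487 to 2982 in EDL of T + WBV, against 2926 to 3370 in C + WBV. Among 9 genes of transforming growth factor beta (TGF-beta) signalling and tendon transcription factors, Tgfb2, a ligand that supports tendon formation in the embryo, was lower in both muscles (−0.95 with SE 0.23 in EDL, −0.86 with SE 0.19 in SOL), and Tgfbr1, its receptor, was higher in EDL (0.64, SE 0.13). Of 9 cartilage markers, 2 were lower in EDL, Ucma (−0.55, SE 0.11) and Col2a1 (−0.44, SE 0.10), and 0 in SOL. The mean log2 level of this list ran from 3.85 to 4.36 in EDL, under the median signal of all probe sets, so the sizes of these differences are not read. In EDL 1 of 7 thrombospondins and matrilins, Matn4 (−0.43, SE 0.10), and 1 of 5 myotendinous junction markers, Col22a1 (−0.41, SE 0.10), were lower. Over all genes 6.60% were lower and 5.27% higher in EDL. A count of 1 or 2 in lists this short is therefore not read as a result about the list. The fast muscle markers Mybpc2 (−0.63, SE 0.15) and Actn3 (−0.39, SE 0.10) were lower in EDL, 2 of 5, while 0 of 5 slow muscle markers and 0 of 4 heart markers passed in EDL or SOL. In heart the heart markers had a median log2 difference of −0.62 and 0 of 4 passed. In heart 1 tendon matrix gene, Dpt (0.70, SE 0.10), and 1 fibroblast marker, Pi16 (1.48, SE 0.21), were higher and 0 genes of any list were lower. Eln, Smoc2, Dpt and Pi16 are named because their counts are small, after their values were seen.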

How the data were processed

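The deposited values are log2 intensities that the authors made with RMA (background correction, quantile normalization and summary per probe set; no source used here states its version). Of 35556 probe sets, the 21218 with 1 gene symbol were averaged per symbol to 18820 genes. Array medians ran from 4.515 to 4.603, and the number of arrays limits the precision. The labels give each sample's mouse, so each array of a group is a separate animal. The groups were compared per tissue in limma 3.58.1 (R 4.3.3) with a mean-variance trend, Benjamini-Hochberg adjustment over all genes and a threshold of 0.01; body mass slopes and within-mouse tissue differences used the same model. The code was tested on simulated data. The 10 genes and all lists were chosen with earlier results of these data known. All 10 genes are named. From each list, up to 3 genes past the threshold with the largest difference in EDL or SOL are named, and the 5 genes most like Tnmd, Kera and Chad. Genes named beyond this rule are stated as such above. Replicate numbers were not used as pairs. Alternatives changed the variance prior, samples, normalization, probe set, low-value filter, covariates and blocks, and left out arrays in turn. The term for arrays whose description ends in _2 marks a label whose meaning is not stated.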

Additional observations from a re-analysis of the deposited data

Results flagged for a closer look

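Among the 80 sets of a gene, a muscle and a group with 5 or 6 arrays, 7 held a value far from the others of its group, where chance alone marks about 1 in 20. On the EDL array of T + WBV replicate 3, Fmod was at 3.80, Thbs4 at 6.29 and Dcn at 10.91, each far below the other 4 arrays, whose nearest values were 9.61, 10.10 and 11.56. On EDL of T replicate 3, the heaviest T mouse, Kera was at 6.98 and the nearest other value at 4.88. On EDL of C + WBV replicate 5, Tnmd was at 7.66 (nearest 8.61) and Kera at 7.65 (nearest 8.47). Scx was at 6.57 on EDL of C + WBV replicate 6 (nearest 6.05).

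Comp moved in opposite directions in 2 tissues of the untrained mice. Its log2 difference in T against C was −2.15 in SOL, where every T array lay below every C array, and 0.49 in heart, where every T array lay above every C array. The difference between the tissues was not tested, and these values were known when the genes were chosen.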

How the results depend on the processing

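Of 442 recomputed counts of called genes, 409 stayed within 1.5 times the value reported and 33 did not. A count of 0 that stayed at 0 was scored as unchanged, which covers every training comparison. The 409 therefore says little about the stability of counts above 0, and many of those moved in the fits listed below. With the replicate block, the genes lower in T + WBV against C + WBV numbered 1 in EDL and 0 in SOL, and those higher in heart 1, and no other count moved. Arrays with the same replicate number share only that number, and their deviations correlated with a mean r of −0.00190 (EDL), 0.0102 (SOL) and −0.0265 (heart). The fit of only the 2 groups compared gave 0 in SOL and 0 in heart, and the fit of all arrays with the mouse as a random block 5 in EDL and 0 in heart. The term for arrays whose description ends in _2 gave 1 in SOL, and 1 prior variance gave 1 in heart. Leaving out 1 array gave 1 to 4 in SOL and 0 to 2 in heart. For body mass, positive slopes numbered 0 in EDL and 0 in SOL with carcass mass, 0 and 0 in the T mice alone, and 0 and 0 without both heaviest tumour-bearing mice (chosen after seeing the data), and 5 in SOL with no group term. Leaving out 1 mouse gave 1 to 4 in EDL and 0 to 4 in SOL. In the C mice, genes higher in SOL than in EDL numbered 1 with no mouse in the fit and 0 in C + WBV mice, genes higher in heart than in EDL 2 with no mouse in the fit, and genes higher in heart than in SOL 1 in C + WBV mice. Signs changed only for differences that had not passed. In the fit of all arrays, heart Kera was −0.023 and heart Scx 0.080, and in the T mice alone the SOL slopes were −0.31 for Thbs4 and −0.22 for Mkx. When 1 array was left out, Thbs4 in EDL ran from −0.84 to 0.21, Scx in SOL from −0.15 to 0.21, Mkx in SOL from −0.12 to 0.15, and in heart Chad from −0.086 to 0.039, Scx from −0.12 to 0.15 and Mkx from −0.21 to 0.083, while the SOL slope of Thbs4 ran from −0.0029 to 0.25. The cause of these changes was not tested, and with 3 to 6 arrays a group the number of arrays limits the precision.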
